A study of Mus musculus with 800 samples.

Results

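Cortical layer transcription factors are regulators of gene expression whose levels distinguish the layers and projection types of the cerebral cortex. Here they are Tbr1, Neurod2, Neurod6, Fezf2, Bcl11b, Tle4, Cux1, Cux2, Rorb and Foxp2, which are 10 of the 32285 genes in the deposited count table. They were chosen by name and matched by symbol to the Ensembl identifiers of the table, and all 10 were present. By the GENCODE M21 annotation of mm10, Tbr1 is at chr2:61802930-61814114 and Foxp2 at chr6:14901349-15441977, both on the plus strand. On the minus strand are Neurod2 (chr11:98325415-98329648), Neurod6 (chr6:55677822-55681263), Fezf2 (chr14:12342094-12348189), Bcl11b (chr12:107910403-108003602), Tle4 (chr19:14448150-14598051), Cux1 (chr5:136248135-136567490), Cux2 (chr5:121856366-122050102) and Rorb (chr19:18930605-19111196). Their values are reported for 800 single mouse nuclei, 40 under each of 20 viral vectors.

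All groups share one design. C57Bl/6J mice received an adeno-associated virus with the PHP.eB capsid, which crosses into the brain from the blood, in young adulthood. Each vector drove SYFP2, a yellow fluorophore carried on histone H2B so that it stays in the nucleus, at 5e+11 viral genomes per mouse. Nuclei were sorted for the fluorescence 3 to 4 weeks later. The vectors were hSyn1 (a neuronal promoter), CMV (a general viral promoter), DLX2.0 and hI56i (Dlx enhancers of forebrain inhibitory neurons) and 16 enhancers known by an AiE code without a stated target. Animals are not named, so a vector was treated as 1 sample. The p-values measure how a difference between groups of nuclei within a vector varies over the vectors. The fluorescence gate selects the cells that enter each group, and the number of nuclei of each class under a vector is that of a sort. Every sample label gives the anterior lateral motor cortex as the source, whereas the series text also lists striatum and visual cortex.

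The excitatory (glutamatergic) neurons of the cortex pass through a common postmitotic program and then take on layer identities. Neurod2 and Neurod6 are basic helix-loop-helix factors of that common program. Tbr1 (a T-box factor), Tle4 (a Groucho-family corepressor) and Foxp2 (a forkhead factor) are known from deep-layer neurons that project to the thalamus. Fezf2 and Bcl11b, zinc-finger factors also called Fezl and Ctip2, act in layer 5 neurons that project below the cortex. Cux1 and Cux2 are CUT homeodomain factors of the upper layers, and Rorb is an orphan nuclear receptor known from layer 4. Bcl11b and Foxp2 are also known from the projection neurons of the striatum.

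No nucleus repeated the values of another. Library depth had a median of 260170.5 counts per nucleus, with a range of 70 to 901264. The 698 nuclei with at least 1000 genes detected were clustered without the members and named from marker genes, with "-like" because the names rest on RNA alone. They were 161 striatal projection neuron-like, 108 glutamatergic-like, 103 astrocyte-like, 50 oligodendrocyte-like and 276 GABAergic-like (inhibitory neuron) nuclei. All 9 striatal markers were present in at least 25% of the striatal projection neuron-like nuclei although their labels say cortex. In the glutamatergic-like nuclei 5 of 6 glutamatergic markers reached that share and 0 of 10 GABAergic markers did. A level below is the summed counts of a group divided by the group's total and multiplied by 1e6 (CPM), and a positive nucleus has at least 10 CPM. The 95% intervals of levels (Poisson) and shares (Clopper-Pearson) are exact and cover counting error only. They treat reads and nuclei as independent, although reads carry no molecule barcode and nuclei of a vector may share an animal.

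Tbr1, Neurod2 and Neurod6 were found mostly in glutamatergic-like nuclei. Tbr1 was positive in 40 of 108 glutamatergic-like nuclei (37.04%, 95% interval 27.9 to 46.9%), and in 0 of 161 striatal projection neuron-like, 4 of 103 astrocyte-like, 0 of 50 oligodendrocyte-like and 4 of 276 GABAergic-like nuclei. Neurod2 was positive in 42 glutamatergic-like nuclei (38.9%, 29.7 to 48.8%), in 0 striatal projection neuron-like, 2 astrocyte-like, 0 oligodendrocyte-like and 4 GABAergic-like nuclei. Neurod6 was positive in 49 glutamatergic-like nuclei (45.4%, 35.8 to 55.2%), in 1 striatal projection neuron-like, 2 astrocyte-like, 0 oligodendrocyte-like and 3 GABAergic-like nuclei. For comparison, the glutamate transporter gene Slc17a7, which marks the class, was positive in 102 glutamatergic-like, 6 striatal projection neuron-like, 11 astrocyte-like, 1 oligodendrocyte-like and 11 GABAergic-like nuclei. A count of 0 in 161 nuclei leaves an upper bound of 2.27% for the share of positive nuclei.

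**Figure D1:**
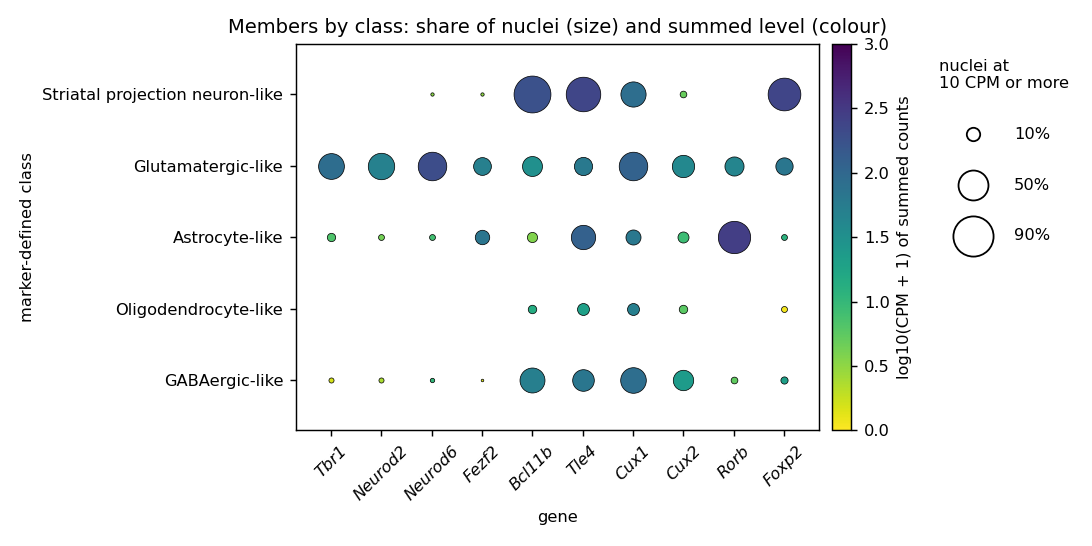
Share of positive nuclei (dot area, at least 10 CPM) and summed level (colour, log10 of CPM plus 1) of each member in each marker-defined class; a class with no positive nucleus has no dot. Tbr1, Neurod2 and Neurod6 stand out in the glutamatergic-like row, Bcl11b, Tle4 and Foxp2 in the striatal projection neuron-like row and Rorb in the astrocyte-like row.

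Because Neurod2 and Neurod6 were the members called between glutamatergic-like and GABAergic-like nuclei (below), the 250 bases upstream of their annotated starts are shown, from the RefSeq annotation of GRCm38.p6, written 5′ to 3′ on the gene's strand. Capitals mark letters that match a motif of a member's own factor family.
Neurod2, chr11:98329646-98329895, minus strand: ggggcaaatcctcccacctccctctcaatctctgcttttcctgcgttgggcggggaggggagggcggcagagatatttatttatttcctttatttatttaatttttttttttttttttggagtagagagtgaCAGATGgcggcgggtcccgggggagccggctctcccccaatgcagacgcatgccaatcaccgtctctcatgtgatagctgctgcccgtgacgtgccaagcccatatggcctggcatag
Neurod6, chr6:55681264-55681513, minus strand: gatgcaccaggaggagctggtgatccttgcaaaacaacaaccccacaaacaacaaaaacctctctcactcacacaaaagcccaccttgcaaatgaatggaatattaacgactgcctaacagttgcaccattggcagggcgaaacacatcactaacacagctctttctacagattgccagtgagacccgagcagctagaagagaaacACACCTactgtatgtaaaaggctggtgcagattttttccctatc
The capitals in Neurod2 are the E-box CAGATG that NeuroD factors bind, from base -118 to -113 relative to the start. The capitals in Neurod6 are the T-box half-site AGGTGT on the opposite strand, from base -44 to -39. Searched on both strands, CAGATG occurs in 14.4% and AGGTGT in 11.8% of 32851 upstream windows of the same length. The ROR half-site AGGTCA (in 14.02% of windows), the forkhead site TGTTTAC (in 3.17%) and the CUT site ATCGAT (in 0.728%) were in neither window. Windows were found for 9 of the 10 members, with Foxp2 named only. A match is a run of letters and not a measured binding site.

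Glutamatergic-like nuclei were compared with GABAergic-like nuclei on counts summed per vector, in 12 vectors where each class had 3 nuclei or more (101 against 176 nuclei). The test was edgeR's quasi-likelihood test with the vector as a block and Benjamini-Hochberg adjustment over all genes tested, and a gene was called at an adjusted p under 0.05. Neurod2 and Neurod6 were called higher, 2 of the 7 members that passed the filter on low counts, where 1.43% of 9094 genes were called higher, 1.77% lower and 3.2% in either direction. Both passed the filter through glutamatergic-like sums, since GABAergic-like sums held reads of each in 1 vector. The call was also made by edgeR with no filter (adjusted p = 1.2e-05 for Neurod2 and 2.58e-22 for Neurod6). Tbr1, Fezf2 and Rorb did not pass the filter. With the same number of nuclei drawn from both classes of each vector, Neurod6 was called and Neurod2 did not pass the filter.

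The level of Neurod2 in glutamatergic-like sums ran over the 12 vectors from 13.5 CPM in AiE0078h, with a median of 50.3, to 153 CPM in AiE0452h. GABAergic-like sums held Neurod2 reads in 1 of the 12 vectors, at 4.19 CPM. The vectors of the classes did not overlap, and the log2 fold change was 9.56 ± 1.41 (SE, adjusted p = 8.5e-05). Neurod6 in glutamatergic-like sums ran from 34.5 CPM in hSyn1, with a median of 157.5, to 886 CPM in AiE0401h. GABAergic-like sums held Neurod6 reads in AiE0078h only, at 136 CPM, so the ranges overlapped although the glutamatergic-like sum was higher within each of the 12 vectors. Its log2 fold change was 11.5 ± 1.2 (SE, adjusted p = 3.25e-07). The 3 Neurod6-positive GABAergic-like nuclei had GABAergic marker sums of 881 to 23775 CPM with a median of 6023. Their glutamatergic marker sums ran from 0 to 1248 CPM with a median of 0, where 2 of the 6 markers were present in at least 25% of these nuclei and 4 had no read, and the part of these markers in the result was not tested. Fold changes of this size rest on near-empty sums in one class and depend on the prior count of the fit.

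Tbr1 had reads in glutamatergic-like sums of 11 of 12 vectors, with a median of 37.6 and a highest value of 216 CPM, and in GABAergic-like sums of 2 vectors, with a highest value of 1.63 CPM. It was higher in 11 vectors and at 0 in both classes in AiE0450h. With no filter on low counts it was called (log2 fold change 8.92 ± 1.76, adjusted p = 6.41e-05), and it also passed the filter and was called without AiE0450h (adjusted p = 0.000355). Fezf2 had reads in 9 glutamatergic-like sums, with a median of 42.8 and a highest value of 119 CPM, and in 1 GABAergic-like sum, at 6.32 CPM. With no filter it was called as well (log2 fold change 7.94 ± 1.97, adjusted p = 0.00434). Rorb had a glutamatergic-like median of 14.2 CPM (0 to 120 CPM) and a GABAergic-like median of 0.163 CPM (0 to 28.6 CPM), and with no filter its adjusted p was 0.258.

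**Figure D2:**
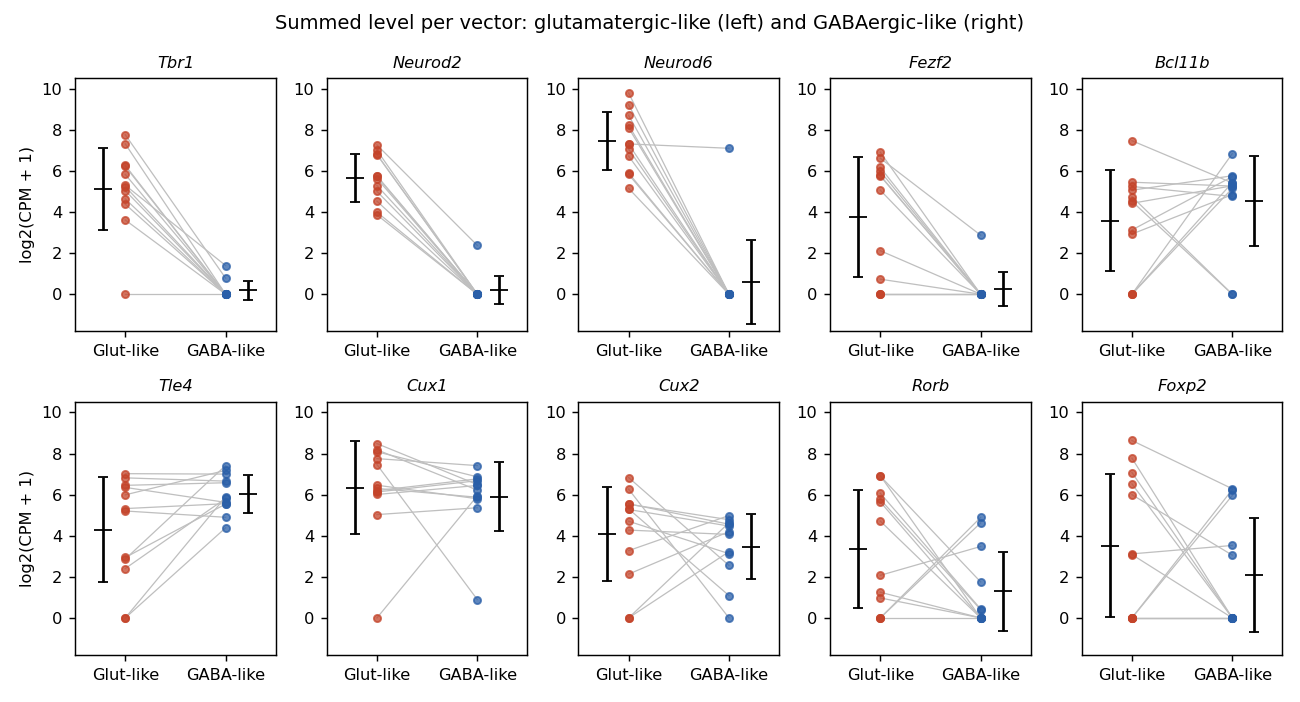
Summed level of each member, as log2(CPM + 1), in glutamatergic-like (red, left) and GABAergic-like (blue, right) nuclei of the same vector, joined by a line for each of 12 vectors; black bars are the mean ± SD over vectors. Neurod2 separates the classes in all 12 vectors, while Bcl11b, Tle4, Cux1 and Cux2 overlap.

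Cux1, Cux2, Bcl11b, Tle4 and Foxp2 did not pass the test between these 2 classes. Cux1 averaged 142 ± 115.5 CPM in glutamatergic-like sums and 79.7 ± 42.6 CPM in GABAergic-like sums (SD, n = 12 vectors). It was higher in glutamatergic-like nuclei in 7 vectors and lower in 5 (log2 fold change 0.59 ± 0.77, adjusted p = 0.872 by edgeR). Cux2 averaged 34.3 ± 33.7 CPM in glutamatergic-like sums and 14.98 ± 10.3 CPM in GABAergic-like sums, with an adjusted p of 0.947. Bcl11b averaged 30.9 ± 48.2 CPM in glutamatergic-like and 38.8 ± 29.1 CPM in GABAergic-like sums (adjusted p = 0.916). Tle4 averaged 46.8 ± 46.2 CPM in glutamatergic-like and 78.1 ± 48.2 CPM in GABAergic-like sums (adjusted p = 0.658). Foxp2 had reads in 7 glutamatergic-like and 5 GABAergic-like sums, with means of 76.4 ± 122 and 19.2 ± 31.6 CPM, and was not called (adjusted p = 0.652). For these 5 members the SD of the glutamatergic-like sums was larger than the difference between the 2 means. Reads of Cux1 cannot be told apart from those of the overlapping gene Gm16599, nor reads of Cux2 from Gm3970 and Gm15637, because the library protocol does not keep the strand.

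Among related genes, 0 of 13 paralogs of the members were called in this comparison (5 passed the filter, median log2 fold change 0.60, against -0.39 over all genes tested). Of 20 other regulators of cortical projection neurons 11 passed the filter, with a median of 1.42, and 1 was called. This was Lmo4, a LIM-domain cofactor, at 153 ± 91.8 CPM in glutamatergic-like and 18.5 ± 10.99 CPM in GABAergic-like sums (log2 fold change 3.15 ± 0.81, adjusted p = 0.0271, higher in 12 of 12 vectors).

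Bcl11b, Tle4 and Foxp2 had their highest levels among the neuronal classes in striatal projection neuron-like nuclei. Bcl11b was at 180.1 CPM there (95% interval 176 to 184), 31.4 CPM in glutamatergic-like, 2.73 in astrocyte-like, 13.1 in oligodendrocyte-like and 51.2 CPM in GABAergic-like nuclei. Positive nuclei were 122 of 161 striatal projection neuron-like (75.8%), 24 of 108 glutamatergic-like (22.2%) and 96 of 276 GABAergic-like (34.8%). Tle4 was at 236 CPM in striatal projection neuron-like, 60.6 in glutamatergic-like, 118 in astrocyte-like, 19.1 in oligodendrocyte-like and 65.0 CPM in GABAergic-like nuclei. Foxp2 was at 239.7 CPM in striatal projection neuron-like, 64.8 in glutamatergic-like, 11.3 in astrocyte-like, 0.131 in oligodendrocyte-like and 20.01 CPM in GABAergic-like nuclei. The level of Foxp2 in GABAergic-like nuclei came from 8 of 276 nuclei.

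Against GABAergic-like nuclei, in 12 vectors with 131 striatal projection neuron-like and 170 GABAergic-like nuclei, 4 of the 5 members that passed the filter were called, 3 higher and 1 lower, where 3.17% of 9283 genes were called higher, 5.53% lower and 8.69% in either direction. Tbr1, Neurod2, Neurod6, Fezf2 and Rorb did not pass it, and none of these 5 had a median above 0.163 CPM in either class. Bcl11b ran from 130.1 CPM, with a median of 199, to 395 CPM in striatal projection neuron-like sums, and from 0, with a median of 39.7, to 114 CPM in GABAergic-like sums. It did not overlap between the classes (log2 fold change 2.39 ± 0.61, adjusted p = 0.0147). Tle4 ran from 118 CPM, with a median of 262.5, to 323 CPM in striatal projection neuron-like sums, and from 19.9, with a median of 49.9, to 170 CPM in GABAergic-like sums. The ranges overlapped, but Tle4 was higher in striatal projection neuron-like nuclei within 12 of 12 vectors (2.13 ± 0.42, adjusted p = 0.00145). Foxp2 ran from 46.6 CPM, with a median of 243, to 377 CPM in striatal projection neuron-like sums, and from 0, with a median of 3.65, to 90.2 CPM in GABAergic-like sums. It was higher in 12 of 12 vectors (6.07 ± 1.31, adjusted p = 0.00371). Without the GABAergic-like cluster led by Nos1, described below, the log2 fold change was 9.27 for Foxp2 (adjusted p = 0.000208) and 3.13 for Tle4 (adjusted p = 0.00359).

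Cux2 was the member that fell. Reads were present in striatal projection neuron-like sums of 4 of 12 vectors, up to 23.1 CPM, against 1.13 to 46.0 CPM in GABAergic-like sums of all 12 vectors. It was lower within each vector (log2 fold change -6.06 ± 1.32, adjusted p = 0.00408). Its paralog Cux1 averaged 87.8 ± 55.4 CPM in striatal projection neuron-like and 79.2 ± 42.0 CPM in GABAergic-like sums (adjusted p = 0.958), and the difference between these CUT factors was not itself tested. In libraries of series S40326 alone (9 vectors) only Bcl11b and Foxp2 passed the threshold. Tle4 then had an adjusted p of 0.066 and Cux2 of 0.107, both in the same direction.

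Foxp1, the forkhead paralog of Foxp2, was the 1 paralog of 5 that passed the filter to be called, at 815.5 ± 240.0 CPM in striatal projection neuron-like and 31.7 ± 29.3 CPM in GABAergic-like sums (log2 fold change 5.06 ± 0.39, adjusted p = 1.48e-08). The paralogs had a median of -0.89, against -0.66 over all genes. Of the other projection neuron regulators 10 passed the filter, with a median of -1.55, and 4 were called, all lower. Mef2c, a MADS-box factor, was at 156 ± 115 CPM in striatal projection neuron-like and 635 ± 285 CPM in GABAergic-like sums (adjusted p = 0.00105). Nfib, a nuclear factor I gene, was at 6.66 ± 11.9 CPM in striatal projection neuron-like and 172 ± 129 CPM in GABAergic-like sums (adjusted p = 0.0001). The others were Sox5 (log2 fold change -9.32 ± 1.57) and Id2 (-7.29 ± 2.05).

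Against glutamatergic-like nuclei, in 9 vectors with 91 striatal projection neuron-like and 52 glutamatergic-like nuclei, 4 of the 6 members that passed the filter were called, 2 higher and 2 lower, where 1.66% of 7595 genes were called higher, 1.42% lower and 3.08% in either direction. All 9 vectors were also in the comparison above, which used the same striatal projection neuron-like nuclei. Neurod2 had 0 reads in striatal projection neuron-like sums and 13.5 to 127 CPM in glutamatergic-like sums, at least 393-fold lower with a floor of 3 counts over the group (adjusted p = 0.0181). Neurod6 had reads in 1 of 9 striatal projection neuron-like sums, at 26.4 CPM, against 58.5 to 886 CPM in glutamatergic-like sums (log2 fold change -10.5 ± 1.1, adjusted p = 1.07e-05). Neither gene overlapped between the classes, and both passed the filter through glutamatergic-like sums. With no filter edgeR called both as well (adjusted p = 0.000637 for Neurod2 and 1.21e-18 for Neurod6). Tbr1, which did not pass the filter, had 0 reads in striatal projection neuron-like and 874 in glutamatergic-like sums, at least 488-fold lower by the same floor. It was called with no filter (adjusted p = 0.00246) and without AiE0450h (adjusted p = 0.0366). With equal numbers of nuclei Neurod2 did not pass the filter.

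Bcl11b and Tle4 were higher in striatal projection neuron-like nuclei than in glutamatergic-like nuclei within 9 of 9 vectors. Bcl11b ran from 139.7 CPM, with a median of 222, to 395 CPM in striatal projection neuron-like sums and from 0, with a median of 20.5, to 176 CPM in glutamatergic-like sums (log2 fold change 4.03 ± 1.01, adjusted p = 0.027). Its adjusted p rose to 0.0687 without AiE0078h, 0.0513 without AiE0140h and 0.0574 without AiE0447h. Tle4 ran from 118 CPM, with a median of 255, to 323 CPM in striatal projection neuron-like sums and from 0, with a median of 6.68, to 129 CPM in glutamatergic-like sums (4.47 ± 1.09, adjusted p = 0.0222). Its adjusted p rose to 0.071 without AiE0078h, 0.0764 without AiE0140h and 0.0596 without hI56i. Foxp2 was higher in 8 of 9 vectors and was not called (4.35 ± 1.43, adjusted p = 0.138), while DESeq2 called it (adjusted p = 2.43e-05) and so did edgeR with no filter (4.42 ± 1.07, adjusted p = 0.00322). Both of these settings called more of all genes than the main fit (totals in the last paragraph). Glutamatergic-like Foxp2 was uneven, from 0 to 396 CPM with a median of 7.67.

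In the same comparison Foxp1 was the 1 of 5 paralogs called (log2 fold change 2.50 ± 0.61, adjusted p = 0.0226, paralog median 2.50 against 0.04 over all genes). Of 12 other regulators that passed the filter (median -2.35) 4 were called lower, Nfib, Sox5, Mef2c and Nfix, and Dach1 higher. Dach1, a nuclear cofactor, was at 100.2 ± 58.3 CPM in striatal projection neuron-like and 7.80 ± 23.1 CPM in glutamatergic-like sums (adjusted p = 0.00439). Nfib was at 2.62 ± 7.76 CPM in striatal projection neuron-like and 304 ± 216 CPM in glutamatergic-like sums (adjusted p = 1.83e-05).

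Within the striatal projection neuron-like class, nuclei were split by the dopamine receptor genes Drd1, and Drd2 with Adora2a, which mark the direct and indirect output pathways of the striatum. Foxp2 was positive in 69 of 82 Drd1-type nuclei and 18 of 58 Drd2-type nuclei, at summed levels of 343 and 99.9 CPM. Tle4 was positive in 48 Drd1-type and 46 Drd2-type nuclei, at 190.5 and 309 CPM. Bcl11b was nearly level, at 181 CPM in Drd1-type and 184 CPM in Drd2-type nuclei. The test used 6 vectors in which each type had 3 nuclei or more (43 against 39 nuclei). Drd1-type Foxp2 was 146 CPM in AiE0078h, 424 in AiE0140h, 419.6 in AiE0387m, 364 in AiE0445h_3xC2, 334 in AiE0450h and 260 CPM in AiE0743m_3xC2. Drd2-type Foxp2 in the same vectors was 324 CPM in AiE0078h, 65.4 in AiE0140h, 37.6 in AiE0387m, 0 in AiE0445h_3xC2, 37.03 in AiE0450h and 100.1 CPM in AiE0743m_3xC2. Foxp2 was higher in Drd1-type sums in 5 vectors and lower in AiE0078h.

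Over these 6 vectors edgeR called 0 members, where 0.0433% of 6922 genes were called higher, 0.0578% lower and 0.101% in either direction. Of the related genes, 0 of 4 paralogs and 0 of 6 other regulators that passed the filter were called. Foxp2 had the lowest edgeR p of the 4 members that passed the filter (log2 fold change 2.95 ± 1.05, p = 0.00943, adjusted p = 1), and DESeq2 called it (adjusted p = 0.0317). The shares above are those of edgeR, and DESeq2 called many more of all genes in this comparison (totals in the last paragraph). Tle4 was lower in Drd1-type sums in 6 of 6 vectors, at 159.9 ± 73.0 CPM in Drd1-type and 335 ± 101 CPM in Drd2-type sums, and was not called (-0.98 ± 0.62, p = 0.123 by edgeR). The Foxp2 levels kept their order within library series. In S40326 they were 354 CPM in 63 Drd1-type and 125.5 CPM in 35 Drd2-type nuclei, and in S40324 they were 235 CPM in 15 Drd1-type and 55.1 CPM in 23 Drd2-type nuclei.

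**Figure D3:**
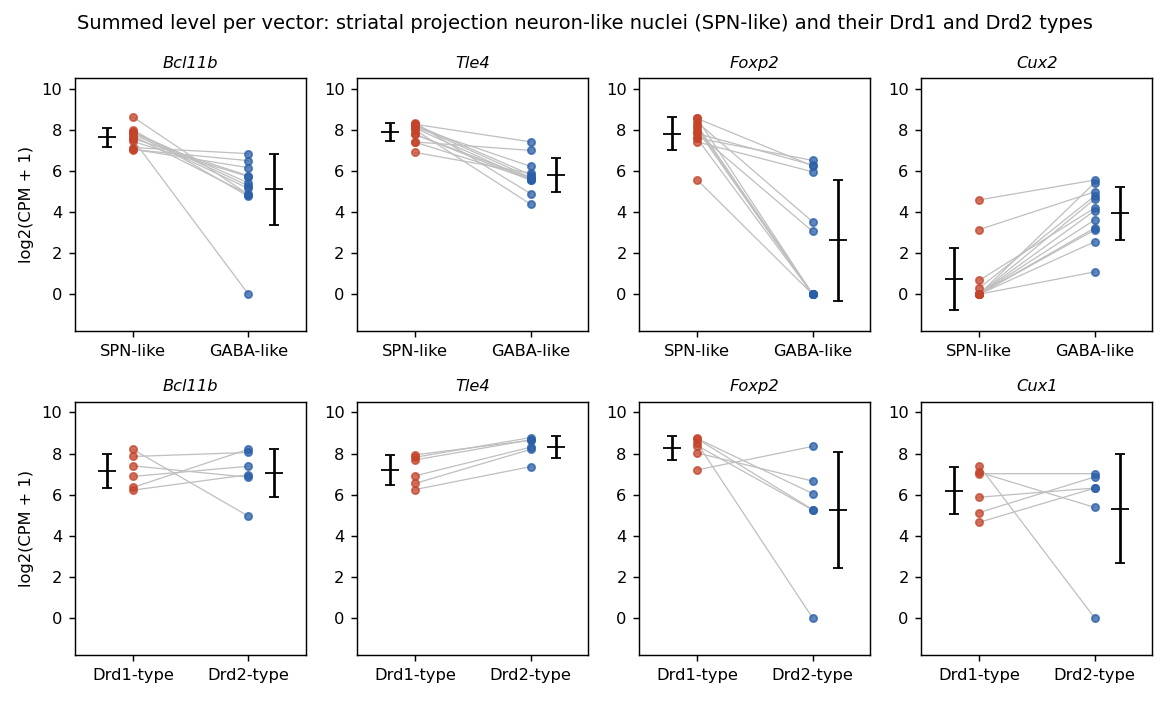
Summed level per vector, as log2(CPM + 1), in striatal projection neuron-like (SPN-like, red) and GABAergic-like (blue) nuclei of 12 vectors in the top row, and in Drd1-type (red) and Drd2-type (blue) nuclei of 6 vectors in the bottom row; lines join sums of a vector and black bars are the mean ± SD. Bcl11b, Tle4 and Foxp2 are higher and Cux2 lower in SPN-like sums of every vector, and Foxp2 is higher in Drd1-type sums of 5 of 6 vectors.

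Rorb reached its highest level in astrocyte-like nuclei. It was at 287 CPM in astrocyte-like nuclei (95% interval 281 to 293), 42.0 CPM in glutamatergic-like, 0.101 in striatal projection neuron-like, 0 in oligodendrocyte-like and 4.39 CPM in GABAergic-like nuclei. Positive nuclei were 60 of 103 astrocyte-like (58.3%, 48.1 to 67.9%) and 22 of 108 glutamatergic-like (20.4%, 13.2 to 29.2%). Astrocyte-like nuclei had fewer genes detected (median 1448) than glutamatergic-like nuclei (median 3264.5). In 9 vectors with 99 astrocyte-like and 133 GABAergic-like nuclei, Rorb was the 1 of 5 members past the filter to be called, where 3.88% of 8609 genes were called higher, 7.04% lower and 10.9% in either direction. Some of these GABAergic-like nuclei also entered the comparisons above. Rorb ran from 9.15 CPM in AiE0401h, with a median of 288, to 447 CPM in AiE0391h in astrocyte-like sums, and had reads in 3 GABAergic-like sums, up to 28.6 CPM in AiE0743m_3xC2. Rorb was higher in astrocyte-like nuclei in 9 of 9 vectors (log2 fold change 10.2 ± 1.5, adjusted p = 2.32e-05). It passed the filter through astrocyte-like sums, and edgeR with no filter called it too (10.2 ± 1.6, adjusted p = 4.68e-08). In the 4 vectors of series S40326 alone its adjusted p was 0.0734 (log2 fold change 7.79).

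Fezf2 was at 66.9 CPM in astrocyte-like and 49.7 CPM in glutamatergic-like nuclei. It was positive in 12 astrocyte-like nuclei, in 6 vectors, in addition to 19 glutamatergic-like nuclei, 1 striatal projection neuron-like, 0 oligodendrocyte-like and 1 GABAergic-like nucleus. The 12 were 5 of 25 astrocyte-like nuclei under AiE0390m, 3 of 16 under CMV and 1 each under DLX2.0, AiE0682h, AiE0600m and AiE0743m_3xC2. Their levels ran from 25.7 to 1777 CPM with a median of 404, against 19.2 to 1654 CPM with a median of 182 in the 19 glutamatergic-like nuclei. Slc17a7 was positive in 2 of the 12, and their glutamatergic marker sums ran from 0 to 545 CPM with a median of 0, with Slc30a3 without a read. In the other 91 astrocyte-like nuclei those sums ran from 0 to 2493 CPM, also with a median of 0. All 7 astrocyte markers were present in at least 25% of the 12 nuclei. Summed by vector, Fezf2 had reads in astrocyte-like sums of 5 of 9 vectors (up to 189 CPM in AiE0390m) and in 0 of 9 GABAergic-like sums. In these vectors it was at least 811-fold higher with a floor of 3 counts over the group. That bound does not hold for the classes as a whole. The GABAergic-like sum of AiE0078h, which is not among the 9 vectors, held Fezf2 at 6.32 CPM. Fezf2 did not pass the filter, and was called with no filter (adjusted p = 0.0187).

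Tle4 was at 109 ± 55.8 CPM in astrocyte-like and 56.2 ± 38.4 CPM in GABAergic-like sums (SD, n = 9 vectors), higher in astrocyte-like nuclei in 8 vectors and not called by edgeR (adjusted p = 0.544). Bcl11b was lower in astrocyte-like sums in 8 of 9 vectors, at 3.93 ± 8.41 CPM, against 48.4 ± 33.2 CPM in GABAergic-like sums. It missed the threshold (log2 fold change -5.49 ± 2.32, adjusted p = 0.143), and DESeq2 called it (adjusted p = 0.000289). Cux1 and Cux2 had adjusted p of 0.519 and 0.423 by edgeR, and DESeq2 called Cux1 lower (adjusted p = 0.048). DESeq2 called many more of all genes than edgeR in this comparison (totals in the last paragraph). Its calls of Bcl11b and Cux1 are therefore no result about these members by themselves. Among the paralogs 1 of 6 was called, Bcl11a, lower at 4.48 ± 10.7 CPM in astrocyte-like and 132 ± 72.1 CPM in GABAergic-like sums (adjusted p = 0.00266, paralog median -0.65 against -1.31 over all genes). Of 11 other regulators (median 0.76) Id2 and Nfia were called higher and Mef2c lower. Id2, an inhibitor of helix-loop-helix factors, was at 1534 ± 369 CPM in astrocyte-like and 138 ± 120 CPM in GABAergic-like sums (adjusted p = 1.58e-06).

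**Figure D4:**
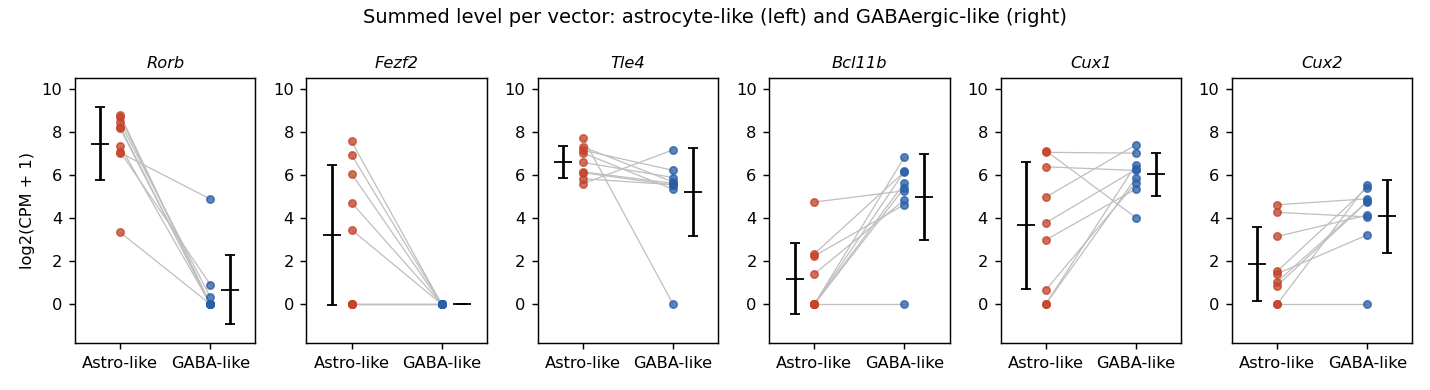
Summed level per vector, as log2(CPM + 1), in astrocyte-like (red, left) and GABAergic-like (blue, right) nuclei of 9 vectors, joined by vector; black bars are the mean ± SD. Rorb is higher in astrocyte-like sums of all 9 vectors, and Fezf2 has reads in 5 astrocyte-like sums and no GABAergic-like sum.

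GABAergic-like nuclei carried Bcl11b, Tle4, Cux1 and Cux2, and no difference between interneuron types passed the test. Pvalb-type nuclei (105, marked by parvalbumin) had Cux1 at 121 CPM and Sst-type nuclei (110, marked by somatostatin) at 66.0 CPM. Tle4 was at 44.9 CPM in Pvalb-type and 104 CPM in Sst-type nuclei, Cux2 at 28.7 and 23.8 CPM and Bcl11b at 52.5 and 60.0 CPM. Over 12 vectors edgeR called 0 of 4 members and DESeq2 called 0, where edgeR called 0.211% of 7579 genes higher, 0.277% lower and 0.488% in either direction. It also called 0 of 5 paralogs and 0 of 5 other regulators that passed the filter. Cux1 was higher in Pvalb-type sums in 10 of 12 vectors (log2 fold change 2.08 ± 1.24, p = 0.104, adjusted p = 0.9997). Within series S40324 Cux1 was nearly level, at 84.2 CPM in Pvalb-type and 82.2 CPM in Sst-type nuclei, and within S40326 it was at 144 and 63.4 CPM. Among the 5 GABAergic-like clusters, Tle4 was at 155 CPM in 27 nuclei led by Nos1 and at 11.4 CPM in 43 with Th, Trh and Lhx8 among their leading genes. In the cluster led by Nos1, the genes Ly6c1, Slco1a4 and Itm2a, known from blood vessels, ranked next, ahead of the interneuron genes Sst and Chodl. Vascular marker sums there ran from 0 to 9295 CPM with a median of 0 and reads in 5 of 27 nuclei, against 0 to 787 CPM with reads in 47 of the other 249 GABAergic-like nuclei. Striatal projection neuron marker sums had a median of 577 CPM there, against 245 CPM in the other GABAergic-like nuclei, and GABAergic marker sums a median of 18686 CPM, against 4135 CPM. Clustered with a minimum of 500 genes, the matching cluster of 25 nuclei met no naming rule, and the part of these markers in the Tle4 level was not tested. Foxp2 was at 98.0 CPM in the cluster with Th, Trh and Lhx8, from 3 positive nuclei of 43. In the cluster led by Nos1 it was at 32.8 CPM, from 4 of 27, and in that led by Pvalb at 1.01 CPM, from 1 of 97. Foxp2 was positive in 0 of 82 nuclei of the cluster with Crhbp and Npas1 among its leading genes, and in 0 of 27 led by Vip.

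The order of members within a class was compared per kilobase of annotated exon, since read counts of full-length libraries grow with transcript length. Whether intron reads were counted is not given. If they were, exon length is not the counted length, and genes with long introns would be placed too high. The order below is therefore conditional on counts of exon reads. In glutamatergic-like nuclei the level was highest for Neurod6, at 92.9 CPM per kilobase, followed by Fezf2 (16.3), Tbr1 (15.5), Neurod2 (15.2) and Tle4 (10.6 CPM per kilobase). Cux1 was at 5.81, and Foxp2, Bcl11b, Cux2 and Rorb lay between 3.79 and 3.96 CPM per kilobase, close to each other. In striatal projection neuron-like nuclei the order was Tle4 (41.3), Bcl11b (22.2), Foxp2 (14.7) and Cux1 (4.21 CPM per kilobase). A single nucleus held 28.6% of the glutamatergic-like Fezf2 reads, so its place in that order rests on few nuclei.

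Levels over whole vectors are given beside the classes each vector held, and no test was made between vectors, which are 1 sample each. Tbr1 was highest under hSyn1 (109.7 CPM, 12 positive nuclei of 40), the vector with most glutamatergic-like nuclei (27), and next under AiE0401h (46.3 CPM). It had no read under AiE0410m, AiE0445h_3xC2, AiE0450h and AiE0600m. Neurod6 was highest under AiE0401h (188 CPM in 5 positive nuclei) and AiE0078h (96.8 CPM in 6). Neurod2 was at 27.1 CPM under AiE0682h and 26.4 CPM under hSyn1, which overlap in their counting intervals. Fezf2 was highest under AiE0390m (129 CPM in 5 nuclei), where 0 nuclei were glutamatergic-like and 25 astrocyte-like, followed by CMV (53.1 CPM in 7).

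Rorb was highest under AiE0390m (208 CPM, 95% interval 200 to 217) and AiE0391h (204 CPM, 195 to 213), whose intervals overlap, followed by CMV (139 CPM) and DLX2.0 (124 CPM). These 4 vectors held 25, 13, 16 and 9 astrocyte-like nuclei. Foxp2 was highest under AiE0779m (171 CPM in 15 nuclei), AiE0743m_3xC2 (144), AiE0387m (138) and AiE0682h (133 CPM), which held 21, 12, 25 and 13 striatal projection neuron-like nuclei. It had no read under AiE0390m, DLX2.0 and AiE0600m. Bcl11b ran from 6.62 CPM under AiE0390m to 108 CPM under AiE0387m, where 28 of 40 nuclei were positive, and AiE0743m_3xC2, also at 108 CPM. Tle4 was highest under AiE0390m (187 CPM in 11 nuclei) and AiE0078h (182 CPM in 20), whose intervals overlap. Cux1 was highest under AiE0401h (154 CPM) and lowest under AiE0410m (1.97 CPM), and Cux2 highest under AiE0391h (42.8 CPM). In AiE0410m 28 of 40 nuclei had fewer than 1000 genes.

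Library series also differ in vectors and classes. Within glutamatergic-like nuclei the level of Tbr1 was 160.4 CPM in series S40323 (33 nuclei, with all hSyn1 nuclei in that series), 33.2 CPM in S40324 (32 nuclei) and 65.3 CPM in S40326 (43 nuclei). Neurod6 was at 33.5 CPM in S40323, 104 in S40324 and 366 CPM in S40326. Series and vector cannot be told apart here for hSyn1.

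Co-detection was examined in the 131 nuclei positive for Slc17a7, of which 102 were glutamatergic-like, 6 striatal projection neuron-like, 11 astrocyte-like, 1 oligodendrocyte-like and 11 GABAergic-like. The most came from hSyn1 (25) and CMV (19). Of the 131, 8 were positive for no member, 25 for 1, 30 for 2, 22 for 3, 27 for 4, 13 for 5, 4 for 6 and 2 for 7. Neurod6 was positive in 51 of 131 Slc17a7-positive and 4 of 567 Slc17a7-negative nuclei, Neurod2 in 45 and 3, Tbr1 in 41 and 7 and Fezf2 in 21 and 12. Cux1 was positive in 54 (41.2%) of the Slc17a7-positive and 170 (29.98%) of the Slc17a7-negative nuclei. Bcl11b ran the other way, with 31 (23.7%) Slc17a7-positive and 219 (38.6%) Slc17a7-negative nuclei.

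For each of the 45 pairs, the nuclei positive for both were set beside the number that the product of the separate shares gives, as a description without a test. The number was above the product in 25 pairs. The 131 nuclei mix classes. Of the 29 Rorb-positive nuclei among them 9 were astrocyte-like, and of the 24 Foxp2-positive nuclei 5 were striatal projection neuron-like. The part of this mix in the pairs was not tested. Bcl11b, Tle4 and Foxp2 were found together more often than the product. Tle4 and Foxp2 were both positive in 15 nuclei, where the product gave 6.23, and this was 15 of the 24 Foxp2-positive nuclei. Bcl11b and Foxp2 were both positive in 13 nuclei (product 5.68), Bcl11b and Tle4 in 14 (8.05) and Fezf2 and Bcl11b in 8 (4.97). So were Cux1, Cux2 and Rorb. Cux1 and Cux2 were both positive in 21 nuclei (product 13.2), Cux1 and Rorb in 17 (11.95) and Cux2 and Rorb in 11 (7.08).

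Several pairs across these groups were below the product, although Tle4 with Cux1 (15, product 14.02) and Fezf2 with Rorb (7, product 4.65) were above it. Cux2 and Foxp2 were both positive in 2 nuclei (product 5.86), Rorb and Foxp2 in 2 (5.31), Bcl11b and Cux2 in 3 (7.57) and Bcl11b and Cux1 in 7 (12.8). Tbr1 and Neurod6 were both positive in 24 nuclei (product 15.96) and Neurod2 and Neurod6 in 23 (17.5). Tbr1 with Foxp2 (7, product 7.51) and Tbr1 with Fezf2 (6, product 6.57) were close to the product. In the 102 glutamatergic-like nuclei alone Tle4 and Foxp2 were both positive in 12 and Rorb and Foxp2 in 0. Under hSyn1 alone, with 25 nuclei, Tle4 and Foxp2 were both positive in 4 where the product gave 1.68, and Cux1 and Cux2 in 5 where it gave 3.24. In striatal projection neuron-like nuclei, where these genes are frequent, the pairs lay near the product. Bcl11b and Foxp2 were both positive in 73 of 161 (product 72.7) and Foxp2 and Tle4 in 62 (63.8). In the 276 GABAergic-like nuclei Cux1 and Cux2 were both positive in 34 (product 23.4), above the product as in the Slc17a7-positive nuclei. Bcl11b and Cux2 were both positive in 28 of these (product 22.3), the reverse of their order in the Slc17a7-positive nuclei. Bcl11b and Tle4, both positive in 23, were below the product there, also the reverse.

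**Figure D5:**
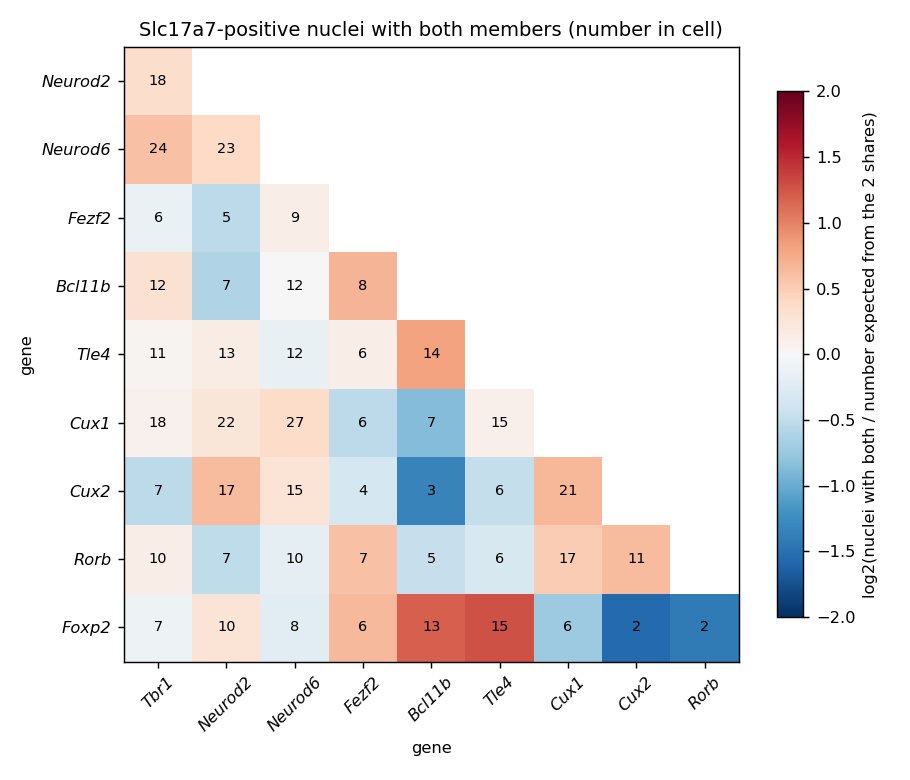
Number of Slc17a7-positive nuclei (of 131) positive for both members of each pair, printed in the cell, with colour for its log2 ratio to the number expected from the 2 separate shares (red above, blue below). Pairs among Bcl11b, Tle4 and Foxp2 are above the expected number and pairs of Cux2 or Rorb with Foxp2 below.

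The 108 glutamatergic-like nuclei were clustered again without the members, into 6 clusters of 31, 30, 21, 13, 9 and 4 nuclei, and the members are described over these without a test. The cluster of 31 nuclei, led by Syt6, had Foxp2 at 139.8 CPM in 11 nuclei, Tle4 at 87.7 CPM in 10 and Neurod6 at 348 CPM in 20, and 1 Cux2-positive nucleus. Drd1, used here as a striatal projection neuron marker, was among its leading genes, and the part of this in these levels was not tested. The cluster of 30 nuclei, led by Rasgrf2 and Otof and the only one to meet the naming rule (upper-layer intratelencephalic-like), had Cux1 at 168 CPM in 20 nuclei, Cux2 at 58.0 CPM in 15 and no Foxp2 read. In the cluster of 21, led by Galntl6, Rorb was at 189 CPM in 14 nuclei and Cux1 at 229 CPM in 13, with no Tle4 read. In the cluster of 13 Cux2 was at 129 CPM in 5 nuclei.

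The 9-nucleus cluster had Fezf2 at 210.2 CPM in 7 nuclei and Bcl11b at 90.01 CPM in 7, with no Cux1 or Neurod2 read. Its leading genes included the GABAergic genes Gad2 and Dlx6os1, and its GABAergic marker sums ran from 0 to 1786 CPM with a median of 0, whose part in the result was not tested. In the 4-nucleus cluster, with Ccn2 among its leading genes, Tle4 was at 634 CPM in 3 nuclei and Foxp2 at 225 CPM in 2. Tbr1 had reads in all 6 clusters. CMV and hSyn1 together gave 6 of the 9 nuclei in the Fezf2 and Bcl11b cluster and hSyn1 gave 3 of the 4 with high Tle4.

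For each member the genes with the most alike pattern were ranked by Pearson's r of log2(CPM + 1) over 60 sums of class by vector, which share libraries and differ in depth, and the values are a description. Neurod6 was nearest to Slc17a7 (r = 0.84) and to Neurod2 (0.83). Among the genes most alike to Neurod2 was Nrn1 (0.84), used here as a class marker. Tbr1 was nearest to Fam19a1 (0.86) and Gm11549 (0.86), followed by Neurod6 (0.81). Bcl11b was nearest to Ptpn5 and Pde10a (0.82 each), a phosphatase and a phosphodiesterase of striatal neurons, and Foxp2 to Gprin3 (0.80) and Scn4b (0.79). Rorb was nearest to Tlcd1 (0.81) and Gm11266 (0.80). Likeness was lower for Fezf2 (Spag5, 0.64), Tle4 (Zeb1, 0.69), Cux2 (Sez6l, 0.67) and Cux1 (Fbxo9, 0.78). Between members, r was 0.79 for Tbr1 and Neurod2, 0.67 for Bcl11b and Foxp2 and -0.42 for Bcl11b and Rorb.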

How the data were processed

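Single nuclei were sequenced with SMART-Seq v4 and Nextera XT, per the labels' protocols. The authors deposited raw read counts per gene and nucleus, with no normalization. STAR 2.7.2a and mm10 are named in the submitters' processing notes, while for the annotation, the counting rule and intron reads the entry is: not given in the sources used here. A further 1701 nuclei of the count table have names that match no label and were not analysed here. Reads carry no molecular identifiers, so intervals cover counting error only.

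Nuclei with at least 1000 genes were clustered with scanpy 1.11.5 and leidenalg 0.10.2, leaving out the members and the 2 related gene lists, so the classes come from other genes of the same nuclei. Classes were named from marker lists, and no doublet caller was run. Counts were summed per vector and class, where both classes had at least 3 nuclei, and tested with edgeR 4.0.16 (quasi-likelihood, TMM, filterByExpr, vector as block) with Benjamini-Hochberg adjustment. A standard error is the absolute log2 fold change over the root of F. The test was also run on simulated counts, with changes only in well-expressed genes and no vector effect. That setting cannot check it for members near 0 or for sums that vary between vectors. Alternatives included DESeq2 1.42.0, no filter, other minima, 1 library series, equal numbers of nuclei and leaving out each vector. Leaving out nuclei of more than 5000 genes, or a GABAergic-like cluster led by Nos1, was chosen after seeing the data. Named are all 10 members, called genes of the 2 lists, and genes among the 3 most alike to each member, of which some are not reported here. The members and lists were chosen with earlier results of these data known. No label says that vectors are separate animals, so their spread may be technical.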

Additional observations from a re-analysis of the deposited data

Results flagged for a closer look

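In each paired comparison with 4 to 10 vectors, a vector was singled out where its gap to the nearest other exceeded Dixon's 95% value. For normally spread values chance does this in about 1 in 20 groups, but that rate cannot be assumed for these sums. Where only 1 vector has reads, the gap equals the range and the vector is singled out however few the reads. The cases are therefore a description and no test. Most cases are genes with reads in few sums. All values below are summed CPM per vector.

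In striatal projection neuron-like sums set beside glutamatergic-like ones, AiE0743m_3xC2 held Neurod6 at 26.39 CPM and Rorb at 0.56 CPM with the other vectors at 0. AiE0682h held Fezf2 at 31.40 CPM, with the others at 0, and Cux2 at 7.85 CPM, next 0.59. Cux1 was lowest in AiE0401h at 1.14 CPM, next 39.06. Foxp2 was lowest in AiE0447h at 46.56 CPM, next 169.43. In the glutamatergic-like sums Cux1 was 0 in AiE0447h, next 63.30.

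In astrocyte-like sums Tbr1 stood out in AiE0390m at 23.26 CPM, next 4.02, and Bcl11b in AiE0401h at 25.93 CPM, next 4.06. Rorb was lowest in AiE0401h at 9.15 CPM, next 131.15. In GABAergic-like sums of that comparison Tbr1 was 0.72 CPM in AiE0401h with the others at 0, and Rorb 28.63 CPM in AiE0743m_3xC2, next 0.89. There CMV, with 3 GABAergic-like nuclei, was at 0 for Bcl11b (next 23.85) and Cux2 (next 8.34), and AiE0390m at 0 for Tle4 (next 39.61).

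In Drd1-type sums Cux2 was 37.64 CPM in AiE0445h_3xC2, next 0.50. In Drd2-type sums Neurod6 was 122.16 CPM in AiE0743m_3xC2 and Cux2 1.13 CPM in AiE0078h, with the others at 0. In AiE0445h_3xC2 Drd2-type Cux1 was 0, next 40.59, and Foxp2 was 0, next 37.03.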

How the results depend on the processing

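Over all alternatives run, no result changed direction. Of the members called for glutamatergic-like against GABAergic-like nuclei, 2 became 4 with no filter, 4 with at least 5 nuclei per sum and 1 with equal numbers of nuclei, and ranged from 2 to 3 when 1 vector was left out. For striatal projection neuron-like against GABAergic-like nuclei, 4 became 2 in series S40326 alone and stayed at 4 without any 1 vector. Against glutamatergic-like nuclei, 4 became 6 with no filter, 5 with DESeq2, 5 with a minimum of 500 genes, 5 with classes from marker scores, 2 with at least 5 nuclei, 2 with equal numbers and 1 in series S40326 alone, and ranged from 2 to 5 without 1 vector. For astrocyte-like against GABAergic-like nuclei, 1 became 3 with DESeq2, 2 with no filter, 2 with equal numbers, 2 without nuclei of more than 5000 genes and 0 in series S40326 alone. For Drd1-type against Drd2-type, 0 became 1 with DESeq2, and Pvalb-type against Sst-type stayed at 0 throughout. The cause of these changes was not tested. Totals over all genes are given below for the main edgeR fit, DESeq2 and no filter only. For the other settings, including no block, no share over all genes stands beside the count. Those counts describe the settings and are no result about the members. The number of pairs above the product ranged from 24 to 27.

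The replicate block is the vector, since replicate numbers in the titles only count nuclei and pair nothing. Without the block, members called were 2, 3, 2, 1, 0 and 0 in the order of the comparisons above, against 2, 4, 4, 1, 0 and 0 with it. Between striatal projection neuron-like and glutamatergic-like nuclei the adjusted p of Bcl11b was then 0.0765 and of Tle4 0.0629. Over all genes edgeR called 291, 807, 234, 940, 7 and 37, DESeq2 1641, 2873, 1066, 3549, 226 and 506, and edgeR with no filter 496, 1489, 400, 1285, 10 and 114. The main edgeR fit and DESeq2 were both run on the genes that passed the filter. These were 9094, 9283, 7595, 8609, 6922 and 7579 genes in the same order. Series S40324 alone left fewer than 3 vectors in every comparison and gave no value. With all vectors Tbr1 and Fezf2 passed the filter in 0 of 6 comparisons and Rorb in 1, for which the cause was not tested. Without the cluster led by Nos1, chosen after seeing the data, members called were the same in number in the 4 comparisons with GABAergic-like nuclei.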
